A study of Homo sapiens with 6 samples.

Results

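Transcripts of 10 adhesion molecules that bind leukocytes, or that belong to the same protein families, were examined in the established human glioblastoma line U251 after exposure to the inflammatory cytokine tumor necrosis factor-α (TNF-α). The members were ICAM1, ICAM2, ICAM3, ICAM4, ICAM5, VCAM1, SELE, NCAM1, ALCAM and MCAM, each taken by its gene name from a table of 58735 genes, and all 10 names were found once. Control cells (NC group, n = 3) received sterile deionized water as vehicle, and treated cells (TNF-α group, n = 3) received 10 ng/mL of recombinant human TNF-α for 24 h. The labels call the libraries of a group independent biological replicates, and the whole experiment rests on 1 cell line, 1 dose and 1 time point. Expression was deposited as FPKM, fragments scaled to gene length in kilobases and to library size, which allows levels to be compared between genes because it is per length.

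Leukocytes leave the blood by rolling on selectins, arresting on immunoglobulin-like ligands and crossing between cells. ICAM1 and VCAM1 are such ligands, bound by the leukocyte integrins LFA-1 and VLA-4, and E-selectin, the product of SELE, mediates rolling. Inflamed endothelium is known to raise all 3 of these molecules through NF-kB, and astrocytes and glioma cells can carry ICAM1 and VCAM1 on their surface as well. ICAM2 to ICAM5 share the integrin-binding domain of ICAM1 but differ in where they are found. NCAM1, ALCAM and MCAM are immunoglobulin-like adhesion molecules that cells use mainly to adhere to each other.

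Promoter sequences of 8 of the 10 members were taken from RefSeq on GRCh38.p14, as windows from 250 bases before to 50 bases after a transcription start. They are shown because ICAM1, VCAM1 and SELE each held the letters GGNATTTCC, an NF-kB-like motif in which N is any base, searched on both strands. The motif was chosen after these promoters had been looked at, and 503 of 34943 windows of all genes (1.44%) held it. The capitals mark the match, and each sequence is written 5′ to 3′ on the strand of its gene.
ICAM1, chr19:10270924-10270952, plus strand: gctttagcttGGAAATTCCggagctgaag
VCAM1, chr1:100719670-100719698, plus strand: tccccttgaaGGGATTTCCctccgcctct
SELE, chr1:169734154-169734182, minus strand: gatgccattgGGGATTTCCtctttactgg

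The match in ICAM1 lay 186 to 178 bases before the start and read along the opposite strand. In VCAM1 it lay 62 to 54 bases before the start, and in SELE 93 to 85 bases before it, both along the strand of the gene. The start meant here is the RefSeq start of the window. For ICAM1 and SELE it lies inside the gene extent printed below, not at its edge. The same 3 members held the TATA box letters TATAAA, which occurred in 11.6% of all windows. The STAT-like letters TTCNNNGAA occurred in ICAM1 and in 7.66% of all windows, and the AP-1-like letters TGANTCA occurred in none of the members and in 7.72% of all windows. The other 5 members with an entry (ALCAM, MCAM, ICAM3, ICAM4 and ICAM5, 7 windows) held none of the 4 motifs. A match describes the letters in these windows and says nothing of binding in these cells.

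Before the members are described, the libraries need 1 remark. Each library held between 31992167 and 37897044 reads in genes, and genes longer than 8 kb took 16.6% and 17.9% of them in TNF-α replicates 2 and 3, against 28.8% to 29.1% in the other 4 libraries. The library size implied by the FPKM values was 0.693 and 0.759 times the reads in genes in these 2 libraries, against 0.925 to 0.959 in the other 4. For the same share of reads in genes, FPKM was thus higher in TNF-α replicates 2 and 3. These 2 libraries stood apart from the rest, and no label gives a batch or date. Of 8 astrocyte and glioma markers 6 were tested, 3 with positive and 3 with negative log2 fold changes (median -0.09). GFAP fell (7.10 to 9.47 FPKM with vehicle, 1.58 to 2.60 with TNF-α, limma adjusted p = 0.0210), VIM had 325 to 362 against 434 to 974 FPKM (adjusted p = 0.195), and AQP4 was at 0 in all 6 libraries. Of 9 leukocyte markers none passed the filter used below, and PTPRC and CD3E were at 0. The summed level of the list was 1.10 to 1.27 FPKM with vehicle and 1.02 to 2.01 with TNF-α. CD14 was the highest of the list, with 0.660 to 0.825 FPKM with vehicle and 0.528 to 1.55 with TNF-α. Of 8 endothelial markers 1 passed the filter, KDR, and EMCN was at 0. KDR had 6.08 to 6.64 FPKM with vehicle and 5.74, 1.95 and 2.00 in TNF-α replicates 1, 2 and 3. The sum was 6.37 to 6.89 FPKM with vehicle and 2.23 to 6.09 with TNF-α, most of it KDR.

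Among the members, ICAM1 rose and no other member passed the test across all genes. VCAM1 was higher in all 3 TNF-α libraries than in any NC library but stayed near or below 1 FPKM. ALCAM, NCAM1 and MCAM were expressed in both groups and did not pass the test. ICAM5 was low, SELE and ICAM3 had at most 4 reads in a library, and ICAM2 and ICAM4 had none. Limma was run on log2(FPKM + 1) for genes that reached 1 FPKM in 3 or more libraries, which left 12136 genes and 4 of the 10 members (ICAM1, NCAM1, ALCAM and MCAM). Of all genes tested 123 passed an adjusted p of 0.05, or 1.01% (0.717% as a rise and 0.297% as a fall), and of the 4 members 1 passed. At an unadjusted p under 0.05 there were 24.2% of all genes tested, and limma-voom on reads recovered from the values called 0.634%.

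**Figure D1:**
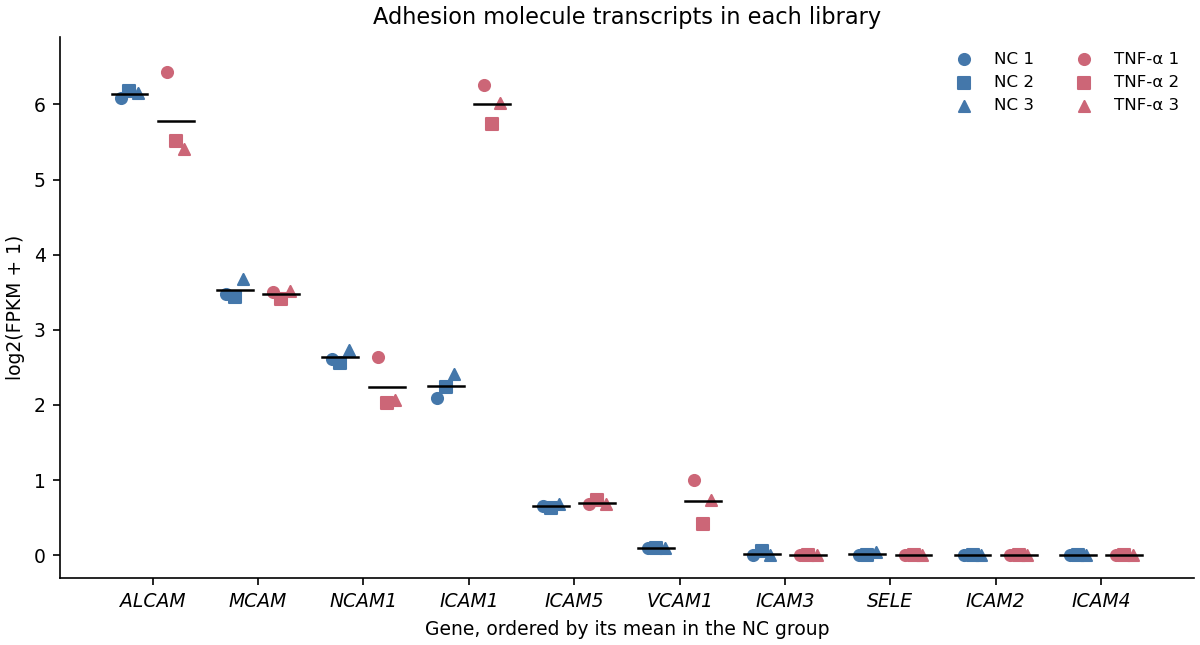
Expression of the 10 members in each library, as log2(FPKM + 1), with the members ordered by their NC mean. Each point is a library, symbols give the replicate number and black lines are group means (n = 3 per group). ICAM1 lies near 2 in the NC group and near 6 in the TNF-α group, and ALCAM and NCAM1 are lower in TNF-α replicates 2 and 3 than in replicate 1.

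ICAM1 (ENSG00000090339, chromosome 19, 10270835 to 10286615, plus strand) encodes the ligand of the leukocyte integrins LFA-1 and Mac-1. Its level was 3.25, 3.74 and 4.32 FPKM in NC replicates 1, 2 and 3, and 75.9, 52.6 and 63.7 FPKM in the corresponding TNF-α replicates. The lowest TNF-α library was thus far above the highest NC library. The mean went from 3.77 ± 0.535 to 64.0 ± 11.6 FPKM (SD, n = 3 each), a ratio of 17.0. The log2 fold change was 3.76 (standard error, SE, 0.18; 95% confidence interval 3.32 to 4.20; limma adjusted p = 0.000833).

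The rise of ICAM1 did not rest on the libraries that stood apart. Relative to the NC mean the ratio was 20.1, 14.0 and 16.9 in TNF-α replicates 1, 2 and 3, so that replicate 1, which resembled the NC libraries in its share of long genes, had the highest. Without TNF-α replicates 2 and 3 the log2 fold change was 4.02. ICAM1 is 3.71 kb long, and genes of 2 to 4 kb were lifted in replicates 2 and 3. Their median log2 ratio to the NC mean was 0.54 and 0.45 there, and -0.02 in replicate 1. The ratios above are not adjusted for this lift. After subtraction of a fit of GC content and gene length from each library, the log2 fold change of ICAM1 was 3.28. Among the 12136 genes tested ICAM1 ranked 4 by size of the rise and 7 by p. For the ICAM1 values alone, an exact two-sided permutation test gave p = 0.1, the smallest that 3 against 3 libraries can reach.

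The ICAM1 values rest on many reads. Whole reads could be recovered from the deposited values, and ICAM1 had 435, 454 and 514 reads with vehicle and 9036, 5053 and 5728 with TNF-α. In the order of all genes of a library by FPKM, ICAM1 stood at rank 8653, 8230 and 7729 with vehicle, and at rank 522, 1395 and 1038 with TNF-α. It therefore moved from a moderately low level to the upper range of the transcriptome. In bulk RNA, more RNA per cell and more cells that express a gene cannot be told apart.

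**Figure D2:**
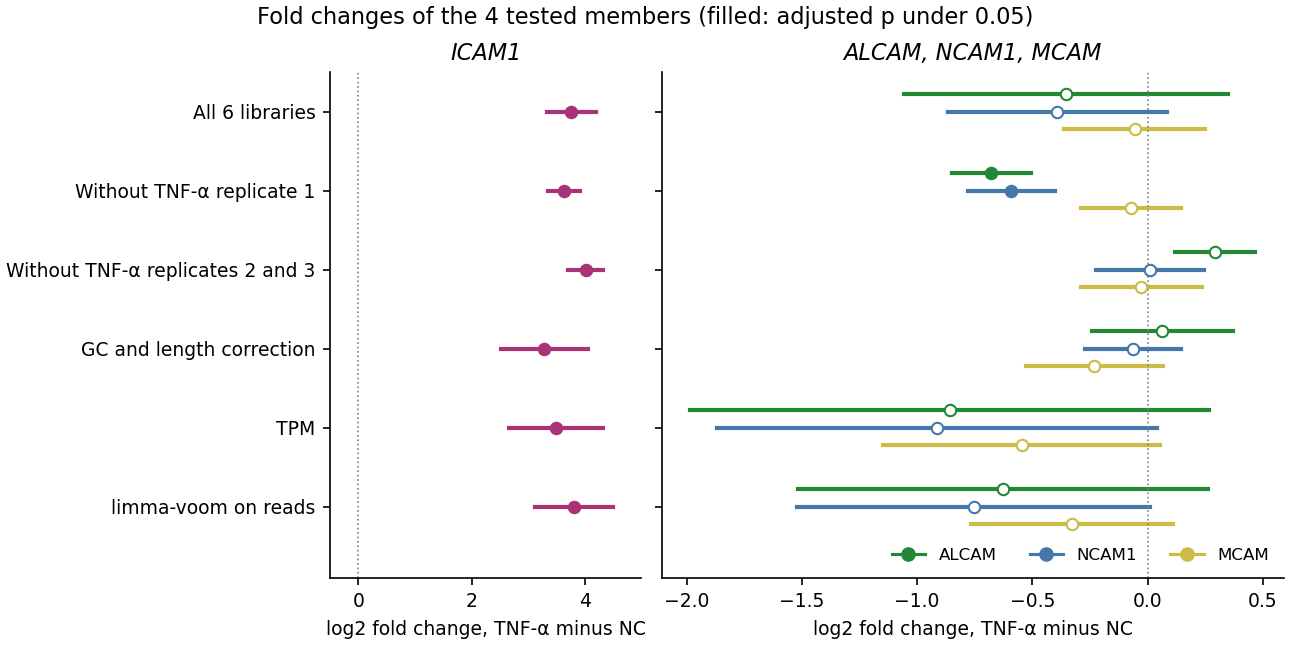
Log2 fold change (TNF-α minus NC) of the 4 members that were tested, with all 6 libraries and under 5 alternatives. Points are estimates, lines are 95% confidence intervals and filled points have an adjusted p under 0.05. ICAM1 is filled in each row, from 3.28 to 4.02, whereas ALCAM and NCAM1 are filled only without TNF-α replicate 1 and ALCAM lies on either side of 0.

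VCAM1 (ENSG00000162692, chromosome 1, 100719742 to 100739045, plus strand) encodes the ligand of the integrin VLA-4. It had 0.0732, 0.0655 and 0.0720 FPKM with vehicle and 1.01, 0.338 and 0.660 FPKM in TNF-α replicates 1, 2 and 3. In reads these values were 16, 13 and 14 against 196, 53 and 97. The groups did not overlap, which held for a rise in 8.32% of the 31662 genes with a read in any library. The mean went from 0.0703 ± 0.00414 to 0.669 ± 0.335 FPKM (SD, n = 3 each), a ratio of 9.52, and the ratio of single TNF-α libraries to the NC mean was 14.4, 4.81 and 9.40.

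VCAM1 did not pass the filter on low values, so it was not in the main test. The difference of its mean log2(FPKM + 1) was 0.62, and an exact two-sided permutation test gave p = 0.1, again the smallest possible. When no filter was used, limma gave an adjusted p of 0.307. On the recovered reads, limma-voom over genes with at least 10 reads in at least 3 libraries gave a log2 fold change of 2.80 (SE 0.73, adjusted p = 0.169). These data therefore show values of VCAM1 that differ between the groups, without a call at the threshold, and a wide range within the TNF-α group (0.338 to 1.01 FPKM).

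SELE (ENSG00000007908, chromosome 1, 169722641 to 169764705, minus strand) encodes E-selectin, on which leukocytes roll. It had 1, 0 and 4 reads with vehicle and 0 reads in each TNF-α library (exact two-sided permutation p = 0.4). A count of 0 allows up to 3 reads, which over the full length of SELE equals 0.0181 to 0.0269 FPKM in the 6 libraries. Such limits cover counting error only, since PCR copies are not independent molecules. SELE thus held the same motif as ICAM1 and VCAM1 in its promoter window and had no read in the TNF-α libraries.

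Of the other ICAM genes, ICAM5 (ENSG00000105376, chromosome 19, 10289981 to 10296778, plus strand), which encodes telencephalin of forebrain neurons, was the only one with reads in every library. It had 0.581, 0.546 and 0.606 FPKM with vehicle and 0.606, 0.662 and 0.612 FPKM with TNF-α. The groups overlapped narrowly, the reads were 82, 70 and 76 against 76, 67 and 58, and the difference of mean log2(FPKM + 1) was 0.04 (exact two-sided permutation p = 0.2). Its sign depended on the scaling and was -0.25 with TPM. ICAM5 starts 19.1 kb from the start of ICAM1 on the same strand.

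ICAM3 (ENSG00000076662, chromosome 19, 10333776 to 10339823, minus strand) encodes a ligand that resting leukocytes carry. It had 4 reads in NC replicate 2 and none in the other 5 libraries. ICAM2 (ENSG00000108622, chromosome 17, 64002594 to 64020634, minus strand), a ligand of endothelial cells and platelets, had no read in any library. Over its full length this allows up to 0.0256 to 0.0381 FPKM, and more over the 2374 exonic bases that it does not share with other genes. ICAM4 (ENSG00000105371, chromosome 19, 10286967 to 10288522, plus strand), a red cell antigen, also had no read in any library.

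The zero of ICAM4 cannot be read as absence. All of its exonic bases (100%) are shared with other genes of the annotation, and all 312 protein-coding genes of that kind were at 0 in all 6 libraries, against 2450 of 11097 (22.1%) that share no exonic base. The 17 of them that share bases with genes of the opposite strand alone were at 0 too. No read over such bases thus appeared in the values, and strand did not separate the genes. ICAM3 shares 71.2% of its exonic bases, which leaves 849 to be counted, ICAM2 shares 26.8%, and ICAM1 23.6%. NCAM1, MCAM and SELE share 5.52%, 7.71% and 5.80%, and VCAM1, ALCAM and ICAM5 share none.

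The genes around ICAM1 were described because ICAM1, ICAM3, ICAM4 and ICAM5 lie in 1 cluster. The table lists 17 genes whose lower coordinate lies within 100 kb of that of ICAM1. Of these 5 passed the filter, 1 of the 5 passed the test (ICAM1 itself) and 5 were at 0 in all libraries. The other 4 tested neighbours were S1PR2, a sphingosine-1-phosphate receptor, MRPL4, a mitochondrial ribosomal protein, RAVER1, an RNA-binding protein, and TYK2, a kinase of cytokine receptors. Their log2 fold changes were 0.74, 0.92, -0.58 and 0.43, with limma adjusted p-values of 0.195, 0.195, 0.197 and 0.195.

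For MRPL4 the difference lay in the libraries that stood apart, with 17.7, 16.3 and 20.1 FPKM with vehicle, 17.8 with TNF-α in replicate 1, and 54.3 and 43.9 in the other two. RAVER1 was lower in those libraries alone. It had 23.4, 25.4 and 24.8 FPKM with vehicle and 25.1, 11.3 and 14.4 in TNF-α replicates 1, 2 and 3. S1PR2 had 1.89, 1.73 and 2.25 FPKM against 2.49, 5.49 and 4.27. None of the 4 tested neighbours thus came near the log2 fold change of ICAM1 in size. AC011511.5, an antisense gene that overlaps the 3′ end of ICAM1 and all of ICAM4, had 1, 0 and 0 reads with vehicle and 6, 23 and 9 with TNF-α. Because strand did not separate reads, these cannot be told apart from transcripts of ICAM1 and ICAM4 that reach outside their annotated exons.

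**Figure D3:**
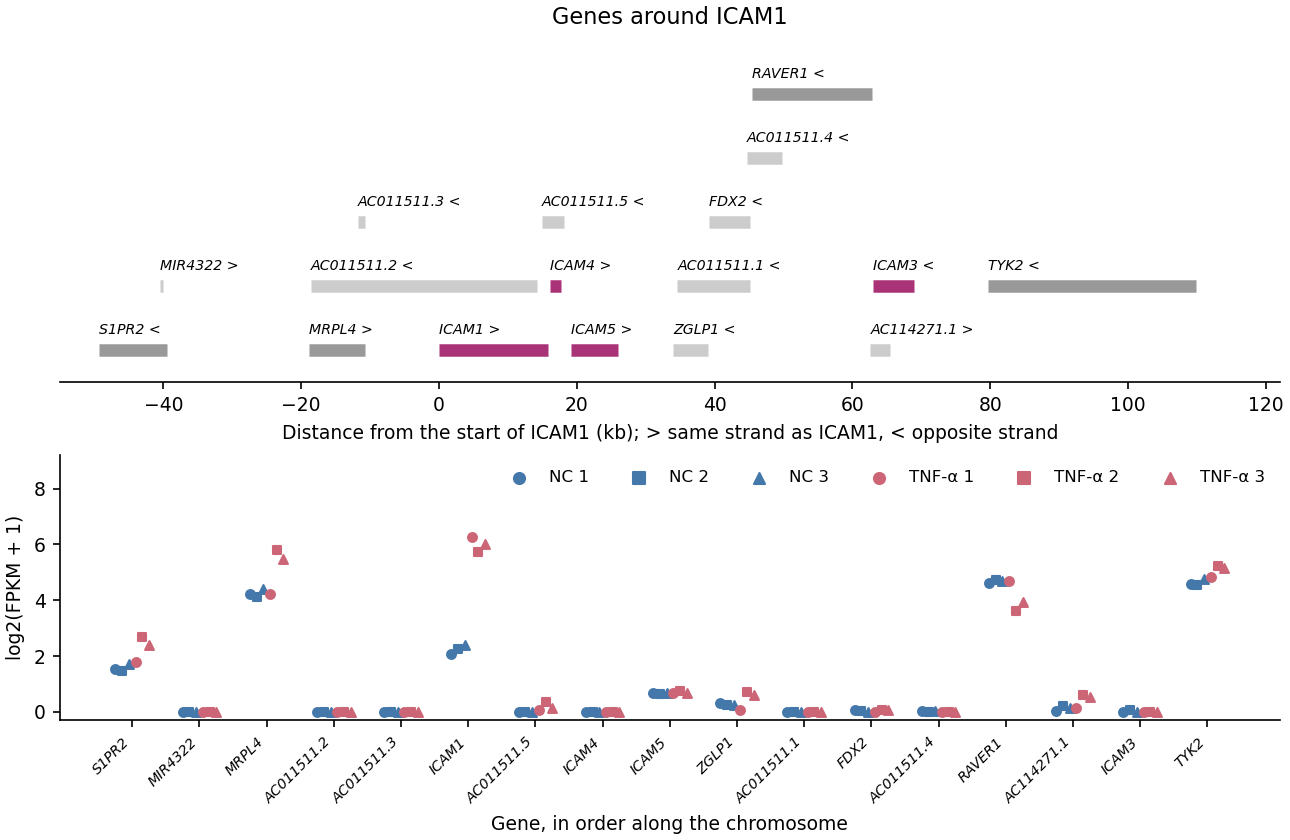
Genes around ICAM1, with their extent in kb from the start of ICAM1 (top; ICAM genes coloured, other tested genes dark grey, untested genes light grey) and their log2(FPKM + 1) in each library (bottom). Points are libraries and symbols give the replicate number. ICAM1 is the only gene of the 17 whose TNF-α libraries all lie more than 3 log2 units above the NC libraries.

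ALCAM (ENSG00000170017, chromosome 3, 105366909 to 105576900, plus strand), which binds CD6 on T cells and also itself, was the most abundant member of the NC group. Its level was 67.2, 71.2 and 69.9 FPKM with vehicle and 85.4, 44.9 and 41.2 FPKM in TNF-α replicates 1, 2 and 3. The NC libraries thus lay between the TNF-α libraries, with replicate 1 above them and replicates 2 and 3 below. The log2 fold change was -0.35 (SE 0.29, 95% confidence interval -1.06 to 0.35, limma adjusted p = 0.360). The interval includes changes in either direction and does not show that ALCAM was the same in both groups.

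NCAM1 (ENSG00000149294, chromosome 11, 112961247 to 113278436, plus strand), the neural cell adhesion molecule CD56, had 5.09, 4.91 and 5.66 FPKM with vehicle and 5.26, 3.06 and 3.19 FPKM in TNF-α replicates 1, 2 and 3. TNF-α replicate 1 lay within the NC range and the other two below it. The log2 fold change was -0.39 (SE 0.20, 95% confidence interval -0.87 to 0.08, limma adjusted p = 0.200). MCAM (ENSG00000076706, chromosome 11, 119308529 to 119321521, minus strand), the adhesion molecule CD146, had 10.2, 9.86 and 11.8 FPKM against 10.4, 9.59 and 10.5 FPKM. Its groups overlapped, and the log2 fold change was -0.06 (SE 0.13, 95% confidence interval -0.36 to 0.25, limma adjusted p = 0.737).

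The split of ALCAM and NCAM1 within the TNF-α group followed the split of the libraries. As log2 ratios to the NC mean, ALCAM was at 0.29, -0.62 and -0.74 in TNF-α replicates 1, 2 and 3, NCAM1 at 0.010, -0.61 and -0.57, and MCAM at -0.03, -0.13 and -0.01. In replicates 2 and 3 the ratios of all tested genes moved with gene length. The median was 0.63 and 0.52 for the 2094 genes under 2 kb, -0.25 and -0.23 for the 839 genes of 7 to 8 kb, the class of ALCAM (7.18 kb) and MCAM (7.42 kb), and -0.71 and -0.66 for the 696 genes over 12 kb, the class of NCAM1 (12.7 kb). In replicate 1 the median of every class lay within 0.03 of 0. NCAM1 was thus near the median of its class in both libraries, ALCAM below its class and MCAM above it. The classes take no account of GC content, which was 51.0% for NCAM1, 38.3% for ALCAM and 59.2% for MCAM. A departure from a class therefore cannot be read as particular to the gene. Neuronal markers, of which 2 of 6 were tested, had summed levels of 6.40 to 6.68 FPKM with vehicle and 3.23 to 6.04 with TNF-α, and their part in the NCAM1 values was not tested.

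Without TNF-α replicate 1, ALCAM (-0.68, limma adjusted p = 0.000102) and NCAM1 (-0.59, adjusted p = 0.000329) both passed the threshold, as did 79.4% of all genes tested, and 36.8% of all genes tested passed in the lower direction. Without TNF-α replicates 2 and 3, which leaves 1 TNF-α library that is assumed to vary like the others, ALCAM was at 0.29 (adjusted p = 0.0724) and NCAM1 at 0.010 (adjusted p = 0.972). After subtraction of a fit of GC content and gene length from each library, ALCAM was at 0.064, NCAM1 at -0.063 and MCAM at -0.23. TPM and limma-voom gave lower values than the main test, with -0.86 for ALCAM, -0.91 for NCAM1 and -0.55 for MCAM on TPM, where the median of all genes tested was -0.42, and with -0.63, -0.75 and -0.33 by limma-voom, where that median was -0.21. Quantile normalization gave -0.74 for ALCAM, -0.31 for NCAM1 and -0.12 for MCAM. None of the 3 passed the threshold in these fits. The share of the TNF-α treatment in the lower values of replicates 2 and 3 cannot be told apart from what set these libraries apart.

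**Figure D4:**
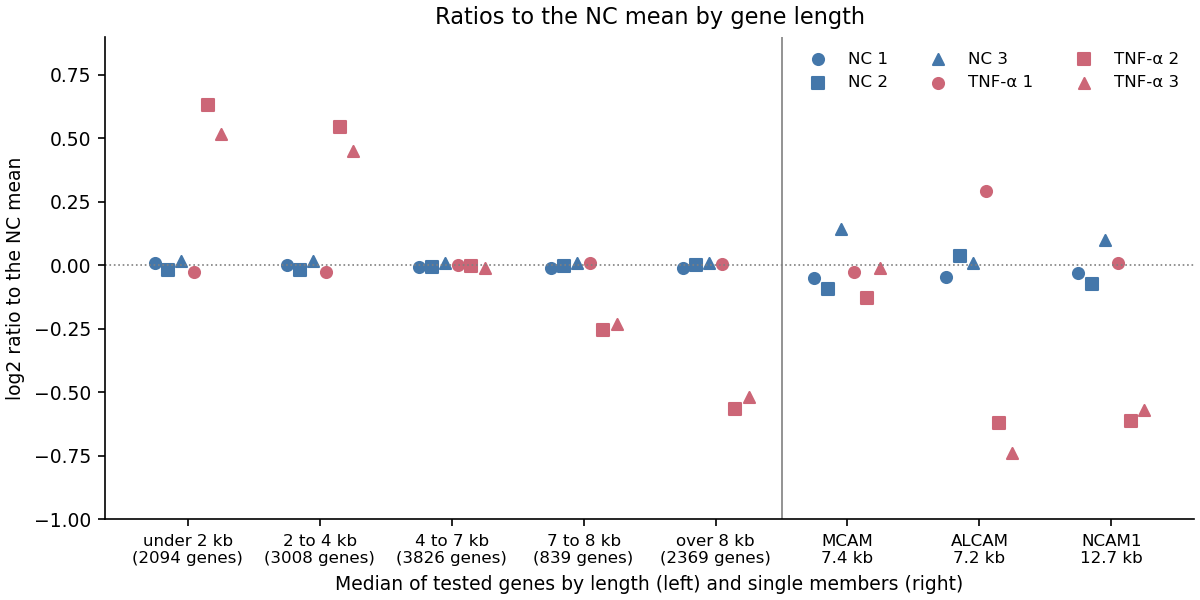
Log2 ratio of each library to the NC mean, on log2(FPKM + 1). Left of the grey line, points are medians of tested genes in 5 classes of gene length, and right of it they are MCAM, ALCAM and NCAM1 with their lengths. TNF-α replicates 2 and 3 (squares and triangles) go from 0.63 and 0.52 in the shortest class to -0.56 and -0.52 in the longest, and replicate 1 stays near 0 in each class.

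The order of the members by mean FPKM differed between the groups. In the NC group it was ALCAM (69.4 ± 2.07 FPKM, SD, n = 3), MCAM (10.6 ± 1.04), NCAM1 (5.22 ± 0.394), ICAM1 (3.77 ± 0.535), ICAM5 (0.578 ± 0.0298) and VCAM1 (0.0703 ± 0.00414), and no neighbours in this order overlapped in range. In the TNF-α group it was ICAM1 (64.0 ± 11.6), ALCAM (57.1 ± 24.5), MCAM (10.2 ± 0.493), NCAM1 (3.83 ± 1.23), VCAM1 (0.669 ± 0.335) and ICAM5 (0.626 ± 0.0309). There, ICAM1 overlapped with ALCAM, and VCAM1 with ICAM5. In TNF-α replicate 1 ALCAM was above ICAM1 (85.4 against 75.9 FPKM). ICAM1 was above ALCAM only in replicates 2 and 3, the libraries that stood apart. Division by the unshared exonic bases alone leaves NCAM1 above ICAM1 in each NC library but brings their ranges to overlap, at 4.25 to 5.65 FPKM for ICAM1 and 5.19 to 5.99 for NCAM1.

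As a share of the summed FPKM of the 10 members, ICAM1 went from 4.19% ± 0.458 to 47.7% ± 5.31, and ALCAM from 77.4% ± 1.60 to 40.9% ± 6.72 (SD, n = 3 each). In TNF-α replicates 1, 2 and 3 these shares were 42.5%, 47.3% and 53.1% for ICAM1 and 47.8%, 40.4% and 34.4% for ALCAM. The sum itself was 86.3, 90.4 and 92.4 FPKM with vehicle and 178, 111 and 120 FPKM in TNF-α replicates 1, 2 and 3. On the deposited scaling all 3 sums of the TNF-α group were above the NC group. The library size in that scaling was 0.693 and 0.759 times the reads in genes in TNF-α replicates 2 and 3. In the other libraries it was 0.925 to 0.959 times, so the comparison of replicates 2 and 3 with the NC group depends on the scaling. These sums compare transcripts per length and say nothing of protein on the cell surface.

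Genes whose values were most like those of ICAM1 were sought by the Euclidean distance of log2(FPKM + 1), centred on the NC mean, over the 6 libraries. The 5 nearest of the tested genes were CXCL10 (distance 0.69), CXCL8 (0.73), TRAF1 (0.79), CSF2 (0.99) and CXCL2 (1.29). CXCL10, CXCL8 and CXCL2 encode chemokines, TRAF1 an adaptor of TNF receptors and CSF2 the growth factor GM-CSF. CXCL10, the nearest, had 8.31, 7.10 and 7.62 FPKM with vehicle and 119, 116 and 166 FPKM with TNF-α, with a log2 fold change of 3.94 beside 3.76 for ICAM1. Unlike ICAM1, it was highest in TNF-α replicate 3.

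The partners of the members were then examined in 7 lists with 89 genes, of which 52 were tested. Of these 1 passed the test, and it rose (1.92%, against 1.01% of all genes tested), and the median log2 fold change was -0.01, against 0.04 over all genes tested. The gene was JAM2, a junctional adhesion molecule that leukocyte integrins bind during transmigration. JAM2 had 1.23, 1.63 and 1.18 FPKM with vehicle and 5.78, 5.42 and 5.59 FPKM with TNF-α. The groups were far apart and TNF-α replicate 1 was close to the other two, with a log2 fold change of 1.497 (SE 0.13, limma adjusted p = 0.00853).

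The call of JAM2 was less firm than that of ICAM1. Its direction was the same in 20 of 20 alternatives, with a log2 fold change of 1.40 to 1.99, but the call was lost in 6 of them, which included TPM (limma adjusted p = 0.158) and the fits without TNF-α replicate 3 (0.0790) or NC replicate 1, 2 or 3 (0.103, 0.0578 and 0.0967). In its list, the junctional molecules of transmigration, 11 of 16 genes were tested, 8 had positive and 3 negative log2 fold changes, and the median was 0.40. Limma called 1 of the 11, and 3 had an unadjusted p under 0.05. Over all genes tested the latter share was 24.2%, which also belongs beside the same counts in the lists below.

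Among the integrins and other receptors that bind the members, 4 of 15 genes were tested by limma and none passed (1 at an unadjusted p under 0.05, 0 with limma-voom). All 4 had negative log2 fold changes, with a median of -0.88. ITGB1, the β1 chain of VLA-4 and of matrix receptors, had 110.4, 111.9 and 108.0 FPKM with vehicle and 115.9, 34.2 and 41.3 FPKM in TNF-α replicates 1, 2 and 3. ITGAV, the αv chain, had 24.5, 26.5 and 23.7 FPKM against 31.9, 9.70 and 8.98. For both, TNF-α replicate 1 was above the NC range and replicates 2 and 3 were far below it, the split seen in ALCAM. ITGB2, the β2 chain of LFA-1, named here as the partner of ICAM1 after its values were seen, had 0.244 to 0.435 FPKM over the 6 libraries.

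Of the selectins, their ligands and the enzymes that make selectin ligands, 6 of 15 genes were tested by limma and none passed (3 at an unadjusted p under 0.05, 0 with limma-voom), with a median of 0.15. B4GALT1, a galactosyltransferase, had 59.2, 58.9 and 57.8 FPKM against 110.7, 97.1 and 95.2, groups that did not overlap, as in 14.8% of all genes tested for a rise (log2 fold change 0.77, limma adjusted p = 0.0900). PODXL, a sialomucin, had 82.0, 77.4 and 88.8 FPKM against 130.0, 63.1 and 66.3, on either side of the NC range. SELP, FUT7 and GLYCAM1 were at 0 in all libraries.

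Of the immunoglobulin-like adhesion molecules of neural and epithelial cells, 6 of 12 were tested by limma and none passed (1 at an unadjusted p under 0.05, 0 with limma-voom), with a median of 0.05. NRCAM, a neuronal adhesion molecule, had 20.5, 19.7 and 19.1 FPKM against 39.4, 13.8 and 14.2, and CADM1, a homophilic adhesion molecule, had 6.98, 7.09 and 7.01 FPKM against 9.75, 7.0 and 6.41. In both, TNF-α replicate 1 was the highest library, as it was for ALCAM. The polysialyltransferases that modify NCAM1 were not tested, and ST8SIA4 had 0.955, 1.09 and 0.915 FPKM against 0.934, 0.252 and 0.470 while ST8SIA2 stayed at or below 0.105.

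Of the cytoplasmic linkers and signalling partners of ICAM1 and VCAM1, 15 of 16 genes were tested by limma and none passed (4 at an unadjusted p under 0.05, 0 with limma-voom), with a median of -0.14. FLNA and ACTN4, which link ICAM1 to actin, were abundant in both groups, with 746 to 838 and 422 to 508 FPKM with vehicle and 773 to 828 and 342 to 417 FPKM with TNF-α. The groups did not overlap for ACTN4 (log2 fold change -0.29, adjusted p = 0.273), as in 15.3% of all genes tested for a lower level, and they overlapped for FLNA.

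Of the sheddases that release such molecules from the surface and their inhibitors, 10 of 13 genes were tested by limma and none passed. At an unadjusted p under 0.05 there were 5 of the 10, against 24.2% of all genes tested, and limma-voom called 0. Log2 fold changes were positive in 5 and negative in 5 of the 10, with a median of 0.13. MMP14, a membrane-bound metalloproteinase, had 48.8, 48.2 and 53.8 FPKM against 75.1, 96.4 and 94.4 (log2 fold change 0.80, adjusted p = 0.109). Its groups did not overlap, as in 14.8% of all genes tested for a rise. TIMP1, an inhibitor of metalloproteinases, had 53.2, 47.9 and 58.3 FPKM against 53.7, 198.8 and 156.8. Here TNF-α replicate 1 lay within the NC range and only replicates 2 and 3 were above it.

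**Figure D5:**
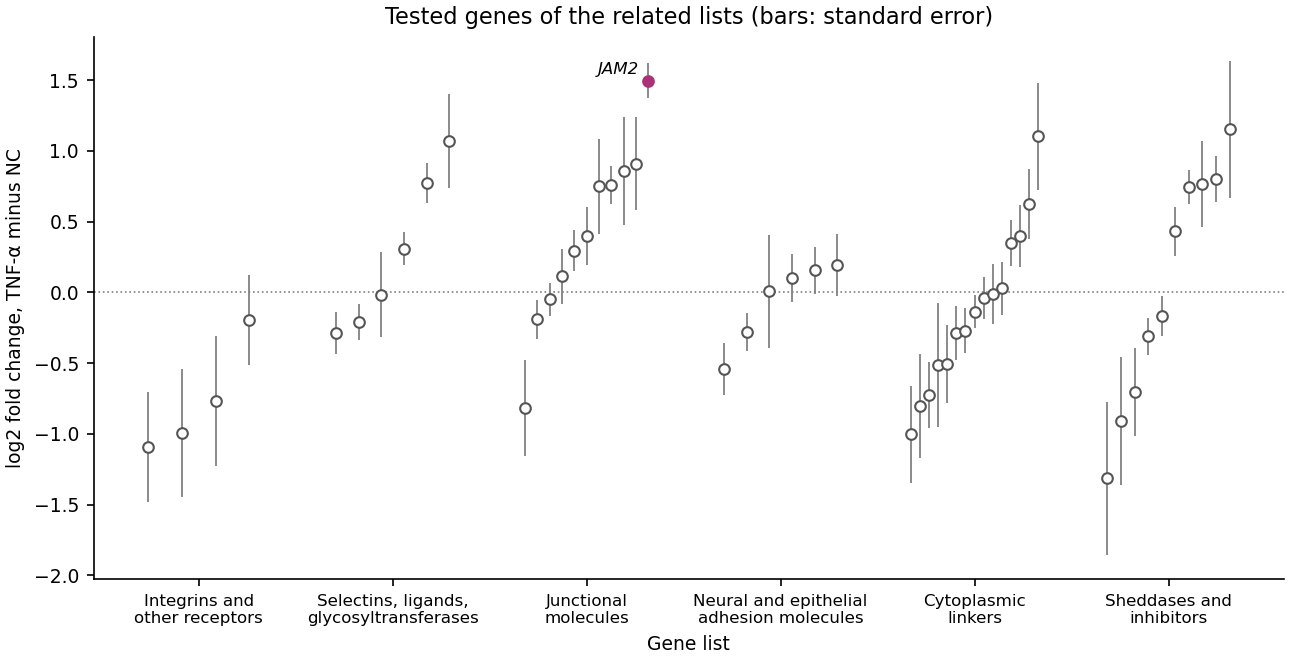
Log2 fold change (TNF-α minus NC) of the 52 tested genes of 6 lists of partners, ordered by size within each list. Points are genes, bars are the SE of limma and the filled point is the gene with an adjusted p under 0.05. JAM2, at 1.497, is the only filled point, and its SE of 0.13 is small beside that of genes such as TIMP1 at 1.15.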

How the data were processed

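RNA-seq was analysed in 6 libraries, grouped by the labels. The authors deposited FPKM per gene and library, which was neither pooled nor log-transformed. The submitters' processing notes name HISAT2 2.0.5, StringTie 1.3.3b, featureCounts 1.5.0, DESeq2, edgeR and GATK 3.7, without their role. The build was not given in the sources used here, but all 58735 genes matched GENCODE 29 (GRCh38) in position and length. A further 6 columns matched no sample and were not used. FPKM times length, divided by the value of 1 read estimated for each library, was a whole number of reads for 100% of values (tolerance 0.01). From the deposited values, log2(FPKM + 1) was fitted across all tested genes with limma 3.58.1 in R 4.3.3 (intensity trend, group alone, two-sided), with Benjamini-Hochberg adjustment. Fold changes on this scale understate those of low genes. The script was tested on simulated data that gave both groups the spread of the NC libraries. That test does not cover the wider spread of the TNF-α group. The TNF-α and NC libraries were also compared under other pseudocounts, filters, scalings and libraries.

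Named genes were all members, genes past the threshold in each list or otherwise the 2 with the highest mean, the 5 nearest to ICAM1, and its tested neighbours. The members and lists were chosen with earlier results of these data known. Numpy 2.4.6, pandas 2.3.3, scipy 1.17.1 and matplotlib 3.10.9 were used in Python 3.11.15.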

Additional observations from a re-analysis of the deposited data

How the results depend on the processing

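ICAM1 kept its direction and its call in 20 of 20 alternatives, with a log2 fold change of 3.28 to 4.05 and a limma adjusted p of 5.54e-06 to 0.0196. The number of genes past the threshold, 123 in the test as reported, was 58 without a filter and with TPM, 79 with a minimum of 5 FPKM, 185 with quantile normalization, 270 with the GC and length correction, 732 without TNF-α replicates 2 and 3 and 77 with limma-voom, and it ranged from 10 to 9630 when single libraries were left out, the lowest without NC replicate 2 and the highest without TNF-α replicate 1. The number of members past it was 1 in each alternative except 3 without TNF-α replicate 1 (range 1 to 3). The cause of these shifts was not tested.

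Correlations of the deviations of same-numbered libraries were -0.01, -0.18 and 0.12, and those of libraries with different numbers ran from -0.16 to 0.18. In the TNF-α group replicate 1 differed far more from replicates 2 and 3 than these did from each other. The correlations therefore cannot decide whether the replicate numbers pair the samples. With the replicate number as a block, 24 genes passed, ICAM1 among them (adjusted p = 0.0164) and JAM2 not (0.0807).

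Leaving out single libraries gave -0.59 to -0.28 for NCAM1, -0.68 to -0.16 for ALCAM, -0.10 to 0.02 for MCAM, 0.48 to 0.77 for VCAM1 and 0.03 to 0.06 for ICAM5, and MCAM turned to 0.016 without NC replicate 3. Without TNF-α replicates 2 and 3, NCAM1 turned to 0.010, ALCAM to 0.29, and VCAM1 was 0.91. The GC and length correction turned ALCAM to 0.064. A pseudocount of 0.1 gave 2.08 for VCAM1 and 0.10 for ICAM5, a pseudocount of 0.5 gave 0.99 for VCAM1, and TPM gave 1.13 for VCAM1 and -0.25 for ICAM5, while the median of all genes tested moved to -0.42 with TPM and -0.21 with limma-voom. The limma-voom fit on genes with at least 10 reads was chosen after seeing the data. Depth limits SELE and ICAM2, which lie at or below a few reads, shared exonic bases limit ICAM4 and in large part ICAM3, and the 2 libraries that stood apart limit ALCAM and NCAM1.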
